A study of Mus musculus with 6 samples.

Results

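Catecholamine enzymes and adrenergic receptors were examined in dorsal root ganglia (DRG) and spinal cord (SC) of adult mice. The group holds 8 listed genes, and a gene was taken up when the platform annotation gave a probe set that gene and no other. This left 6 genes, Th, Ddc, Dbh, Maoa, Maob and Adra2c, with 13 probe sets, of 18191 genes and 45030 probe sets in all. No probe set was named for Adra1a or Adra2a, and these were not analysed here. The rule uses gene names and no measured value.

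The study placed lumbar DRG and lumbar SC of male C57BL/6J mice, 3 months old, on 3' expression arrays, 3 for each tissue. A pool of 4 mice, left and right sides together, gave the biotin-labelled RNA of an array, and the design calls the pools independent. No treatment or mutation is named for either tissue. Single animals cannot be followed in pools. The DRG is a ganglion of sensory neuron cell bodies with their satellite glia and Schwann cells, and the SC holds neurons, astrocytes and oligodendrocytes. Since whole tissue was measured, fewer cells of a type and less RNA per cell cannot be told apart.

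Catecholamines are made from tyrosine. Tyrosine hydroxylase (Th) makes L-DOPA in the rate-limiting step, aromatic L-amino acid decarboxylase (Ddc) turns it into dopamine, and dopamine beta-hydroxylase (Dbh) turns dopamine into noradrenaline. The monoamine oxidases Maoa and Maob, flavoenzymes of the outer mitochondrial membrane encoded by neighbouring genes of the X chromosome, break the amines down. Axons that descend from the brainstem bring noradrenaline to the dorsal horn, where it dampens nociceptive transmission through alpha-2 adrenergic receptors, which couple to inhibitory G proteins. In mouse DRG, Th is known as a marker of C-fibre low-threshold mechanoreceptors, which respond to gentle touch of hairy skin. RNA of the descending noradrenergic neurons is made mainly in the brainstem, which was not sampled.

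Values are MAS5 signals in arbitrary units, recovered from the deposited ratios on the deposited array scaling. Before that scaling, their trimmed means were 247.3 to 247.5 on every array. Signals before the array scaling are therefore not raw, as MAS5 had already brought the arrays to a common level. A difference is that of log2(signal + 16), DRG minus SC, and a probe set is called when limma's adjusted p over all 45030 probe sets is under 0.05. Pearson correlations of these log2 values over all probe sets were 0.966 to 0.970 between DRG arrays, 0.966 to 0.969 between SC arrays and 0.891 to 0.898 across the tissues. To judge dim signals, 64 probe sets of 45 genes typical of other organs were read on each array, and their 95th percentile, called the off-tissue level, lay between 189 and 251. Their array medians were 25.4 to 43.5. Probe sets differ in affinity, so a signal is compared between tissues and not between genes.

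Th was higher in DRG and Maob was higher in SC. The enzymes of breakdown split between the tissues. Those of synthesis did so only through a Ddc probe set that was under the off-tissue level on every array. Of the 13 probe sets, 6 were called, 4 higher in DRG (Th, Maoa and 2 of Adra2c) and 2 higher in SC (Ddc and Maob). Over all probe sets 32.4% were called, 22.7% as higher in DRG and 9.79% as higher in SC. A call with a log2 difference of at least 1 in size was made for 4 of the 13, against 13.2% of all probe sets (8.45% toward DRG and 4.79% toward SC). The arrays of the tissues did not overlap for 7 of the 13, 5 with DRG higher and 2 with SC higher, against 43.6% of all probe sets (28.4% and 15.1%). The median difference was 0.35 for the 13 probe sets, against 0.08 for all probe sets. On the 6 arrays, 8 of the 13 probe sets never rose above the off-tissue level.

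**Figure D1:**
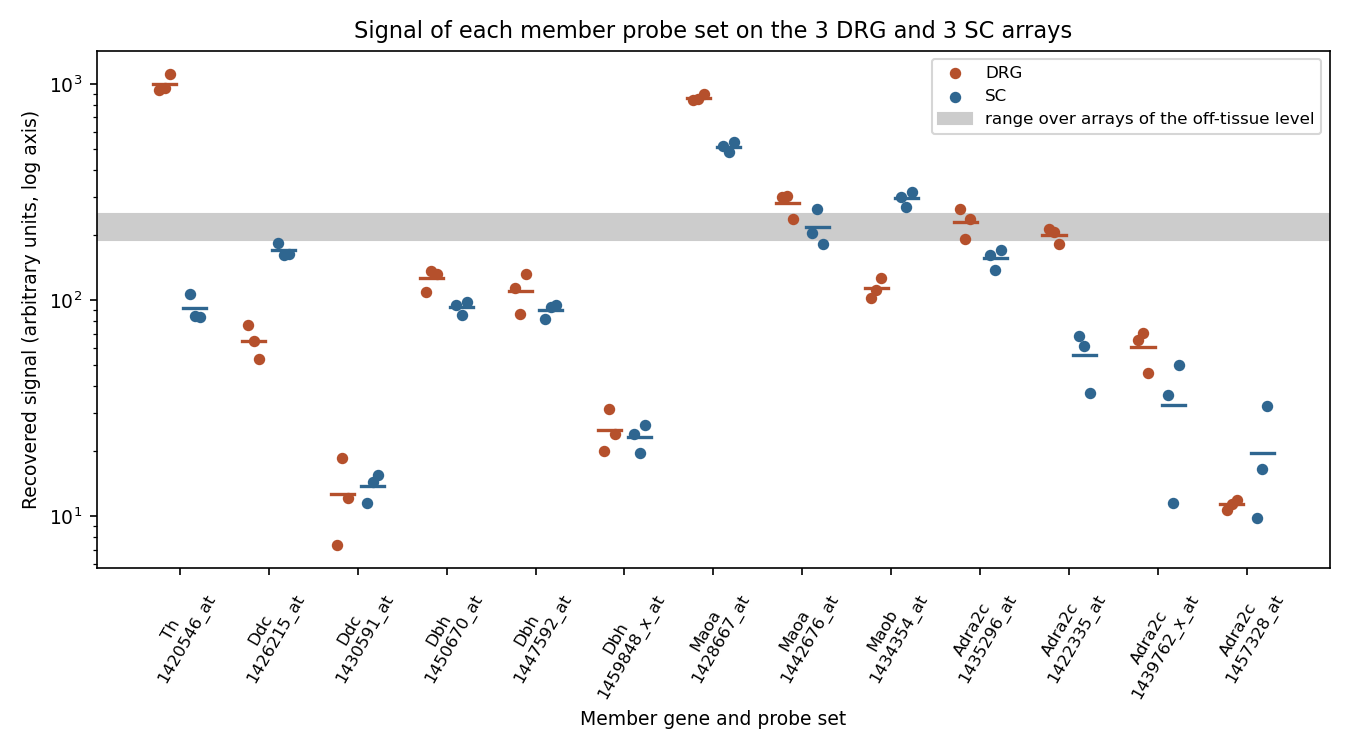
Recovered signal (arbitrary units, log axis) of the 13 probe sets on each array, DRG left of SC, with a short line at each mean (n = 3). The grey band is the range over arrays of the off-tissue level, from 189 to 251; Th stands above it on the DRG arrays and below it on the SC arrays, and Maob the reverse.

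Th, the first and rate-limiting enzyme of the pathway, had the largest difference of the 13 probe sets. Its probe set (1420546_at) had signals of 940.3, 955 and 1108 on the DRG arrays, against 107, 84.6 and 83.5 on the SC arrays. Every DRG array stood above the off-tissue level, and every SC array below it. The means were 1001 ± 93.1 in DRG and 91.8 ± 13.4 in SC (SD, n = 3 each). The log2 difference was 3.24 with an SE of 0.12 (limma adjusted p = 9.69e-08). Because SC stayed below the off-tissue level, the fold is given as a bound, at least 4.74-fold higher in DRG. Only 0.373% of all probe sets had a larger difference toward DRG.

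The sequence around the start of Th is shown because cyclic AMP is a known regulator of Th transcription, acting through a cyclic AMP response element (CRE). The RefSeq window of mouse assembly GRCm38.p6, from 250 bases before to 50 bases after the start site, is chr7:142899946-142900245 on the minus strand. Capitals mark, in order, the Sp1 motif GGGCGG and the CRE letters TGACGTCA, which begin 45 bases before the start site.
Th: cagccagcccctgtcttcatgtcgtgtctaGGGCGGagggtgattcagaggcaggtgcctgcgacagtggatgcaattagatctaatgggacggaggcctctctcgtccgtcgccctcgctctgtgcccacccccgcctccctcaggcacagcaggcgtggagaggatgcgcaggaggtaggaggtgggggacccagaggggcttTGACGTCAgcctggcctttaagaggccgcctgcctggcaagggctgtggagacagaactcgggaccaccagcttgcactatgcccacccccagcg
Each motif was searched on both strands, and the marked motifs do not overlap. The CRE letters occur in 588 of 32851 such windows (1.79%), and the Sp1 motif in 35.7%. The Runx motif TGTGGT was also searched, which 16.8% of windows hold, and was found in none of those of the members. Windows were matched for 5 of the 6 genes, 6 windows in all. Of these, only that of Th held TGACGTCA. A match describes the letters of the window and is not a measured binding site.

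Markers of the cells in which Th is known in DRG were also higher there. All 8 measured of 9 listed genes of C-fibre low-threshold mechanoreceptors, Th included, were called higher in DRG, with a median difference of 2.85 against 0.18 for all genes. Over all genes, each by its brightest probe set, 41.5% were called, 31.8% toward DRG and 9.7% toward SC. The mechanosensitive channel gene Piezo2 differed by 5.42, the secreted protein gene Tafa4 by 4.75 and the transcription factor gene Runx1 by 4.14. Piezo2, Runx1 and some others of this list are also expressed by other sensory neurons, and all 8 measured of 10 listed sensory neuron genes were called higher in DRG too, with a median of 4.56. The summed signal of the mechanoreceptor list, Th included, was 5788 to 6253 on the DRG arrays and 777 to 892 on the SC arrays. The part of these cells in the difference of Th was not tested.

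Ddc, the decarboxylase that acts after Th and also makes serotonin, differed in the opposite direction. Its brighter probe set (1426215_at) had signals of 76.6, 64.5 and 53.2 on the DRG arrays, against 183, 163 and 164 on the SC arrays. The tissues did not overlap, but no array of either tissue reached the off-tissue level, so no fold is given. The log2 difference was −1.21 with an SE of 0.19 (limma adjusted p = 0.000756), and 3.51% of all probe sets had a larger difference toward SC. The other probe set (1430591_at) was dim, at 12.7 ± 5.65 in DRG and 13.9 ± 2.10 in SC (SD, n = 3 each). It differed by −0.07, with a 95% interval from −0.57 to 0.42 (limma adjusted p = 0.858), so the lower Ddc signal in DRG rests on a single probe set.

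Ddc is known to use alternative first exons with promoters of their own, and RefSeq gives a pair of start windows for the mouse gene. Neither holds TGACGTCA, nor do the windows of Dbh, Maoa and Adra2c. A link of these letters to the tissue differences was not tested. The window nearer the gene's end is chr11:11890359-11890658 and the other is chr11:11898095-11898394, both on the minus strand of GRCm38.p6. Capitals mark TATAAA, found on the opposite strand of the upstream window only, so that it reads TTTATA.
Ddc downstream window: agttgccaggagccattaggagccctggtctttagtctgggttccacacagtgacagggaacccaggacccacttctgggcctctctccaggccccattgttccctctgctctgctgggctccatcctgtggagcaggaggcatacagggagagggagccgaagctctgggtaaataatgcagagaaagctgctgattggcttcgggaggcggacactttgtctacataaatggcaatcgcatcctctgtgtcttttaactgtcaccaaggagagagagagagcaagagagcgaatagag
Ddc upstream window: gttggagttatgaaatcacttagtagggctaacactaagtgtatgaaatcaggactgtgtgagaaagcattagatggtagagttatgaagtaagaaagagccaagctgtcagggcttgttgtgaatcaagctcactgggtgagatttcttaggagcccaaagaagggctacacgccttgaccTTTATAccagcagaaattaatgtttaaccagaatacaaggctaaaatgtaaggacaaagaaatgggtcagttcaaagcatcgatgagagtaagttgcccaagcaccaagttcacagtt
TATAAA occurs in 13.6% of all windows. The arrays do not tell which start site was used, as 3' arrays measure the end of the transcript.

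Dbh, which makes noradrenaline from dopamine, was not called on any of its 3 probe sets. The brightest (1450670_at) had signals of 110 to 137 on the DRG arrays, against 85.4 to 98.5 on the SC arrays. These did not overlap, yet all were under the off-tissue level. The log2 difference was 0.38, with a 95% interval from −0.02 to 0.78 (limma adjusted p = 0.146). On signals before the array scaling it was 0.055 (limma adjusted p = 0.847). The next probe set (1447592_at) averaged 111 ± 22.9 in DRG and 89.8 ± 7.14 in SC, and the dimmest (1459848_x_at), of a kind that can match other transcripts, averaged 25.1 ± 5.71 in DRG and 23.4 ± 3.57 in SC (SD, n = 3 each). Their differences were 0.25 and 0.05 (limma adjusted p = 0.434 and 0.901), with overlapping tissues. Without DRG replicate 3 or DRG replicate 2, 1447592_at differed by 0.12 and 0.39, not called.

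The step from dopamine to noradrenaline is a mark of sympathetic neurons, whose ganglia lie near the DRG and whose axons pass near it. Of 12 listed genes of sympathetic and noradrenergic neurons 11 were measured, Dbh itself among them. Of these, 1 was called higher in DRG, 2 higher in SC and 8 not at all, with a median difference of −0.10. The summed signal of the list was 1284 to 1465 on the DRG arrays and 1717 to 1770 on the SC arrays. Of the 11, 6 were above the off-tissue level on no array, while 3 passed it on at least 1 DRG array and 4 on at least 1 SC array. The part of sympathetic neurons in these signals was not tested. The noradrenaline transporter gene Slc6a2 averaged 86.4 ± 25.9 in DRG and 91.2 ± 20.9 in SC. The vesicular transporter gene Slc18a2 averaged 89.9 ± 21.4 in DRG and 85.0 ± 20.3 in SC, and the transcription factor gene Phox2a 37.8 ± 20.1 in DRG and 34.2 ± 16.3 in SC (SD, n = 3 each). None of these 3 passed the off-tissue level on any array. The called members were Chrna3, a nicotinic receptor subunit gene, at 2.14, and Ecel1 and the neuropeptide gene Npy, at −1.77 and −1.10, genes that other neurons express too.

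The monoamine oxidase genes differed in opposite directions. Maoa, whose enzyme prefers noradrenaline and serotonin, had signals of 840.1, 851 and 895 on the DRG arrays, against 517, 484 and 539.6 on the SC arrays (probe set 1428667_at). The tissues did not overlap, and all 6 arrays stood above the off-tissue level. The means were 862 ± 29.2 in DRG and 513 ± 28.2 in SC (SD, n = 3 each), 1.68-fold higher in DRG. The log2 difference was 0.73 with an SE of 0.08 (limma adjusted p = 5.91e-05). It was 0.32 with quantile normalization and 0.37 on signals before the authors' array scaling, still called (limma adjusted p = 0.0125 and 0.00448). The other Maoa probe set (1442676_at) averaged 280.4 ± 36.3 in DRG and 218 ± 42.7 in SC, with overlapping arrays, and differed by 0.35 (limma adjusted p = 0.128). It was 0.17 with quantile normalization and 0.0016 before the array scaling (limma adjusted p = 0.524 and 0.995). Without an array it ranged from 0.24 to 0.49, and in 1 of these 6 fits, without SC replicate 2, it was called (limma adjusted p = 0.0458).

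Maob, whose enzyme prefers phenylethylamine and is known in astrocytes and serotonergic neurons, had signals of 102, 111 and 127 on the DRG arrays, against 299, 271 and 317 on the SC arrays (probe set 1434354_at). The SC arrays stood above the off-tissue level and the DRG arrays below it. The means were 113 ± 12.3 in DRG and 296 ± 23.4 in SC (SD, n = 3 each), at least 1.31-fold higher in SC. The log2 difference was −1.27 with an SE of 0.13 (limma adjusted p = 6.56e-05), and 3.15% of all probe sets had a larger difference toward SC. All 9 listed astrocyte genes were called higher in SC, with a median of −3.73. Gfap, the astrocyte intermediate filament gene, differed by −5.98, the glutamate transporter gene Slc1a2 by −5.81, Agt by −5.19 and the water channel gene Aqp4 by −4.36. The summed signal of the list was 2206 to 2253 on the DRG arrays and 23596 to 25983 on the SC arrays. The serotonergic genes Tph2 and Slc6a4 were above the off-tissue level on no array, at sums of 8.60 to 37.7 in DRG and 12.5 to 23.1 in SC. The part of astrocytes or of serotonergic neurons in the difference of Maob was not tested.

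Adra2c, an alpha-2 adrenergic receptor gene, was higher in DRG on 2 of its 4 probe sets. The probe set with the larger difference (1422335_at) had signals of 214, 208 and 182 on the DRG arrays, against 68.0, 61.4 and 37.2 on the SC arrays. The tissues were well apart, although no array stood above its own off-tissue level. The log2 difference was 1.63 with an SE of 0.22 (limma adjusted p = 0.000299). The brightest probe set (1435296_at) had 263, 192 and 237 on the DRG arrays, against 161, 138 and 171 on the SC arrays. It passed the off-tissue level on 2 DRG arrays and on no SC array, and the tissues did not overlap. It differed by 0.51 with an SE of 0.15 (limma adjusted p = 0.0296), at least 1.09-fold higher in DRG. That call ended after quantile normalization, where the difference was 0.39 (limma adjusted p = 0.0850), and before the array scaling, where it was 0.17 (limma adjusted p = 0.422). It also ended without DRG replicate 1, DRG replicate 3, SC replicate 1 or SC replicate 2, at 0.42, 0.49, 0.53 and 0.43.

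The other probe sets of Adra2c were dimmer and not called. One (1439762_x_at, a kind that can match other transcripts) averaged 60.5 ± 12.9 in DRG and 32.7 ± 19.6 in SC and differed by 0.73 (limma adjusted p = 0.160). The last (1457328_at) averaged 11.4 ± 0.607 in DRG and 19.6 ± 11.5 in SC (SD, n = 3 each) and differed by −0.33 (limma adjusted p = 0.404). Their arrays overlapped between tissues. With an array left out, the first of these ranged from 0.36 (without SC replicate 2) to 1.00 (without SC replicate 3), and the dimmest from −0.54 (without SC replicate 1) to −0.085 (without SC replicate 3). The 4 probe sets thus gave differences from −0.33 to 1.63, and the size of the Adra2c difference depends on the probe set.

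**Figure D2:**
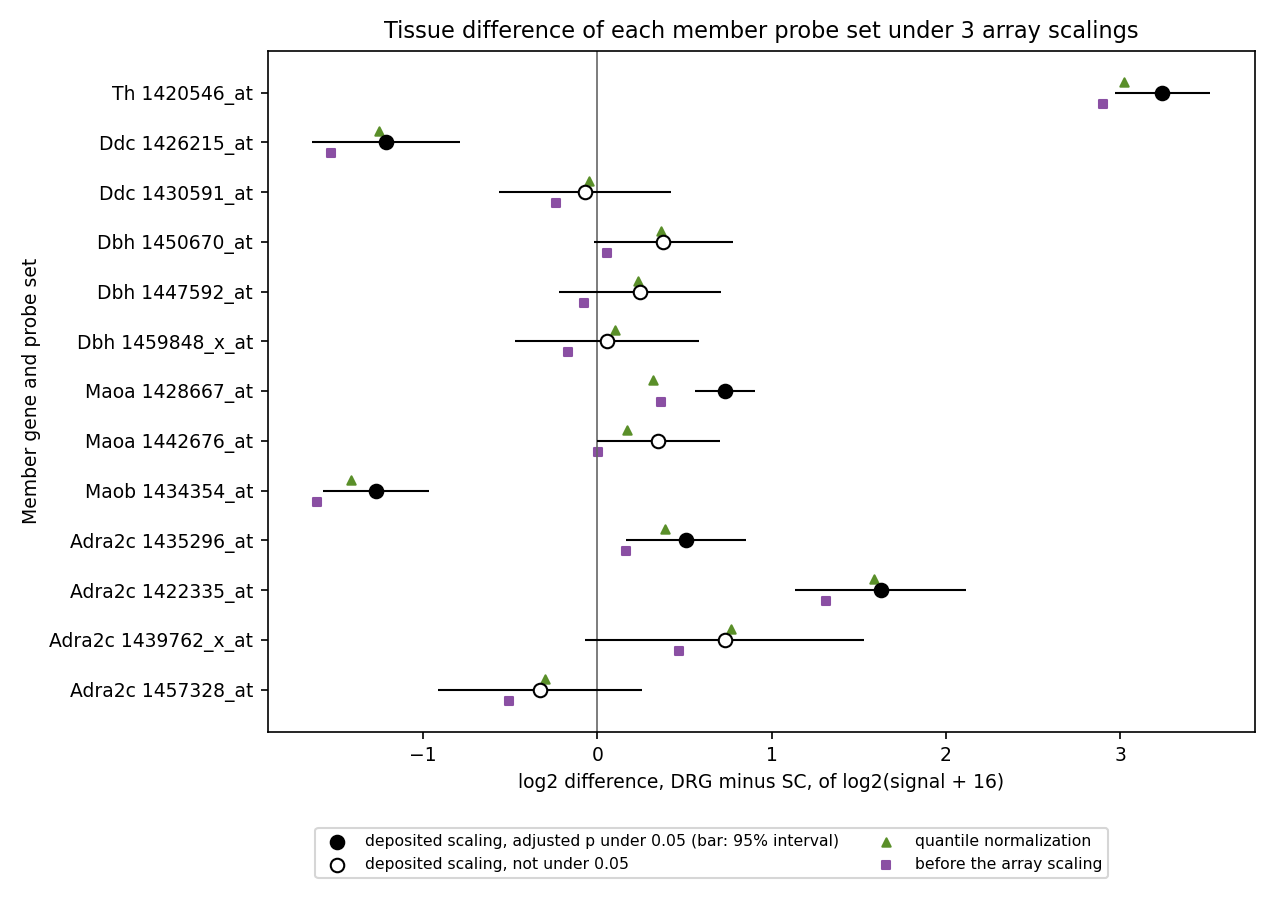
log2 difference, DRG minus SC, of the 13 probe sets, with its 95% interval on the deposited scaling (circles, filled where called) and the values after quantile normalization (triangles) and before the array scaling (squares). Th lies at 3.24, 3.02 and 2.90 and Maob at −1.27, −1.41 and −1.61 in this order, while the brightest Adra2c probe set moves between 0.51, 0.39 and 0.17.

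Array scaling shifts all genes of a tissue together, so pairs of members were compared within arrays, where a common factor nearly cancels. The value is the difference of log2(signal + 16) between the brightest probe sets of the genes, centred midway between the tissue means. For Maob minus Maoa the values were −1.09, −1.003 and −0.91 on the DRG arrays, against 1.01, 0.97 and 1.03 on the SC arrays. The difference was −2.001, so by the brightest probe sets the balance of the oxidases lay further toward Maoa in DRG. The other Maoa probe set, which was not called, has no part in this pair. For Th minus Ddc the values were 1.93, 2.16 and 2.59 on the DRG arrays, against −2.13, −2.26 and −2.29 on the SC arrays, a difference of 4.45. For Dbh minus Th the values were −1.52, −1.26 and −1.52 on the DRG arrays, against 1.26, 1.42 and 1.61 on the SC arrays, a difference of −2.86. In each of the 3 pairs the tissues did not overlap. Each pair difference follows from the differences of the single genes given above, so the pairs are no separate evidence. Each pair holds signals not above the off-tissue level, those of Ddc and Dbh in both tissues, Th in SC and Maob in DRG. The sizes are therefore differences of measured signals and stand for no fold between genes. For Maob minus Maoa, Th minus Ddc and Dbh minus Th they were −1.98, 4.43 and −2.84 before the array scaling. Quantile normalization, which is no common factor, gave −1.73, 4.28 and −2.66, and a pseudocount of 64 gave −1.70, 3.64 and −2.50. The exact permutation test, two-sided, gave p = 0.10 for each, also after Benjamini-Hochberg adjustment over the 3 pairs, which is the smallest p that 3 arrays against 3 allow.

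**Figure D3:**
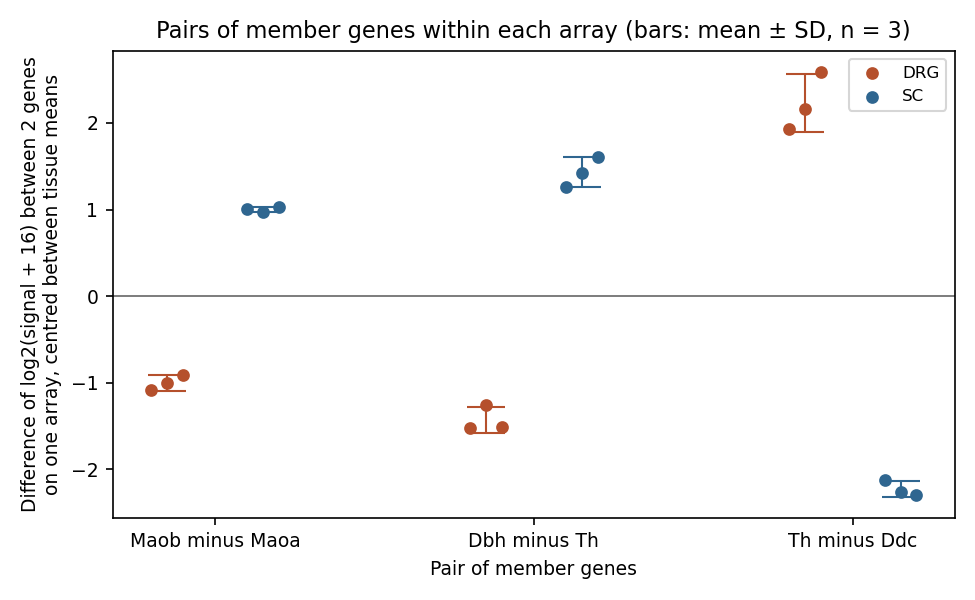
Difference of log2(signal + 16) between 2 member genes on the same array, centred midway between the tissue means, DRG left of SC (points are arrays, bars mean ± SD, n = 3). The tissue means differ by −2.001 for Maob minus Maoa, −2.86 for Dbh minus Th and 4.45 for Th minus Ddc.

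The rest of the pathway was read from lists of 55 further genes, of which 43 were measured, each by its brightest probe set. In these lists 23 genes were called toward DRG, 5 toward SC and 15 not at all, against 31.8% toward DRG and 9.7% toward SC among all genes. With a difference of at least 1 there were 8 toward DRG and 2 toward SC, against 11.5% and 4.77% of all genes (16.3% together). The median difference was 0.53, against 0.18 for all genes, and 13 of the 43 were above the off-tissue level on no array. Of these 28 calls, 21 held with quantile normalization and 21 on the unscaled signals, and 0 turned into a call of the opposite direction. With quantile normalization Cyb561, Akr1a1, Gnaq and Gnao1 fell to 0.67, 0.60, 0.87 and 0.80, and Pcbd1, Gnal, Gnai3 and Rgs4 stayed above 1. Toward SC, Qdpr and Grk3 came to −1.35 and −1.01. For all 49 pathway genes, members included, the median was 0.51, then 0.22 with quantile normalization and 0.18 before the array scaling. Their calls toward DRG and SC were 26 and 7, 18 and 8, and 18 and 9 in this order.

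Genes of tetrahydrobiopterin, the cofactor that Th needs, gave 4 calls toward DRG and 1 toward SC among 7 measured. Pcbd1, a dehydratase that recycles the cofactor, averaged 639 ± 106 in DRG and 114 ± 16.7 in SC (SD, n = 3 each). Its log2 difference was 2.33 (limma adjusted p = 2.83e-06), at least 3.01-fold higher in DRG. Pcbd2, Pts and Spr were also higher in DRG, at 0.78, 0.77 and 0.60, the last losing its call before the array scaling at 0.25. Qdpr, the reductase that regenerates the cofactor, was higher in SC at −0.80. Gch1, which catalyses the rate-limiting step of cofactor synthesis, averaged 75.8 ± 20.6 in DRG and 48.5 ± 14.1 in SC and was not called (limma adjusted p = 0.212). Among the further genes of synthesis, Cyb561, a cytochrome that regenerates ascorbate in secretory vesicles, was higher in DRG at 1.02 (limma adjusted p = 1.84e-05), and Pnmt, which makes adrenaline, was not called at 0.53 (limma adjusted p = 0.281).

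None of the 6 measured transporter genes was called. Besides Slc6a2 and Slc18a2, these were the vesicular transporter gene Slc18a1 at 0.42, the dopamine transporter gene Slc6a3 at −0.32, and the polyspecific carrier genes Slc22a2 at 0.70 and Slc29a4 at 0.30. Slc29a4, alone in this list, exceeded the off-tissue level, with 875 ± 51.0 in DRG and 713 ± 98.2 in SC (SD, n = 3 each). The Slc29a4 difference had a limma adjusted p of 0.0538 and turned to −0.17 with quantile normalization and −0.07 before the array scaling. Those of Slc6a2, Slc18a2, Slc6a3, Slc18a1 and Slc22a2 had adjusted p-values of 0.865, 0.885, 0.531, 0.220 and 0.185 by limma.

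All 8 measured genes of breakdown were called, 6 higher in DRG and 2, Maob and Aldh1a1, higher in SC. Aldh1a1, an aldehyde dehydrogenase that oxidises retinaldehyde and the aldehyde of dopamine, averaged 299 ± 95.3 in DRG and 1791 ± 47.0 in SC (SD, n = 3 each), a log2 difference of −2.56 (limma adjusted p = 4.65e-06). Akr1a1, an aldehyde reductase, differed by 1.11 toward DRG, with 9019 ± 407 in DRG and 4176 ± 334 in SC. Sult1a1, Aldh3a2, Adh5 and Aldh2 were higher in DRG by 0.68, 0.61, 0.58 and 0.37. With quantile normalization Adh5 was not called at 0.08 nor Aldh2 at −0.15. On signals before the array scaling Aldh3a2 was not called at 0.25 nor Aldh2 at 0.01.

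Of 9 listed adrenergic receptor genes only 2, Adra2c and Adra1b, were measured, and the others have no value here. The alpha-1 adrenergic receptor gene Adra1b averaged 11.8 ± 3.54 in DRG and 52.2 ± 38.7 in SC (SD, n = 3 each). It differed by −1.14 (limma adjusted p = 0.0574), and before the array scaling it was called at −1.35 (limma adjusted p = 0.0324). It was under the off-tissue level on all 6 arrays. Drd2, the D2 dopamine receptor gene, averaged 79.3 ± 31.8 in DRG and 271 ± 14.6 in SC (SD, n = 3 each). It differed by −1.65 (limma adjusted p = 0.000633), at least 1.20-fold higher in SC. Of the 5 measured genes of dopamine and trace amine receptors, Drd1, Drd3, Drd4 and Taar1 were not called and stood under the off-tissue level on all arrays.

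Genes of signalling and desensitisation downstream of the receptors gave 13 calls toward DRG and 2 toward SC among 16 measured, the SC ones being Grk3 at −0.62 and Rgs2 at −0.73. Rgs4, which speeds the shut-off of G proteins, averaged 7743 ± 669 in DRG and 655 ± 51.3 in SC (SD, n = 3 each), a log2 difference of 3.53 (limma adjusted p = 1.29e-08). The G protein alpha subunit genes Gnal, Gnai3, Gnaq and Gnao1 were higher in DRG at 2.14, 1.54, 1.45 and 1.38. Gnai1, an inhibitory subunit gene, was not called at 0.09 but was called higher in SC on the other scalings. It was at −0.50 with quantile normalization and −0.28 before the array scaling. The list's calls became 8 toward DRG and 3 toward SC with quantile normalization, and 9 and 3 before the array scaling. Its median of 0.75 became 0.22 and 0.38 in the same order. These proteins serve many receptors, and the list is not particular to adrenergic signalling.

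**Figure D4:**
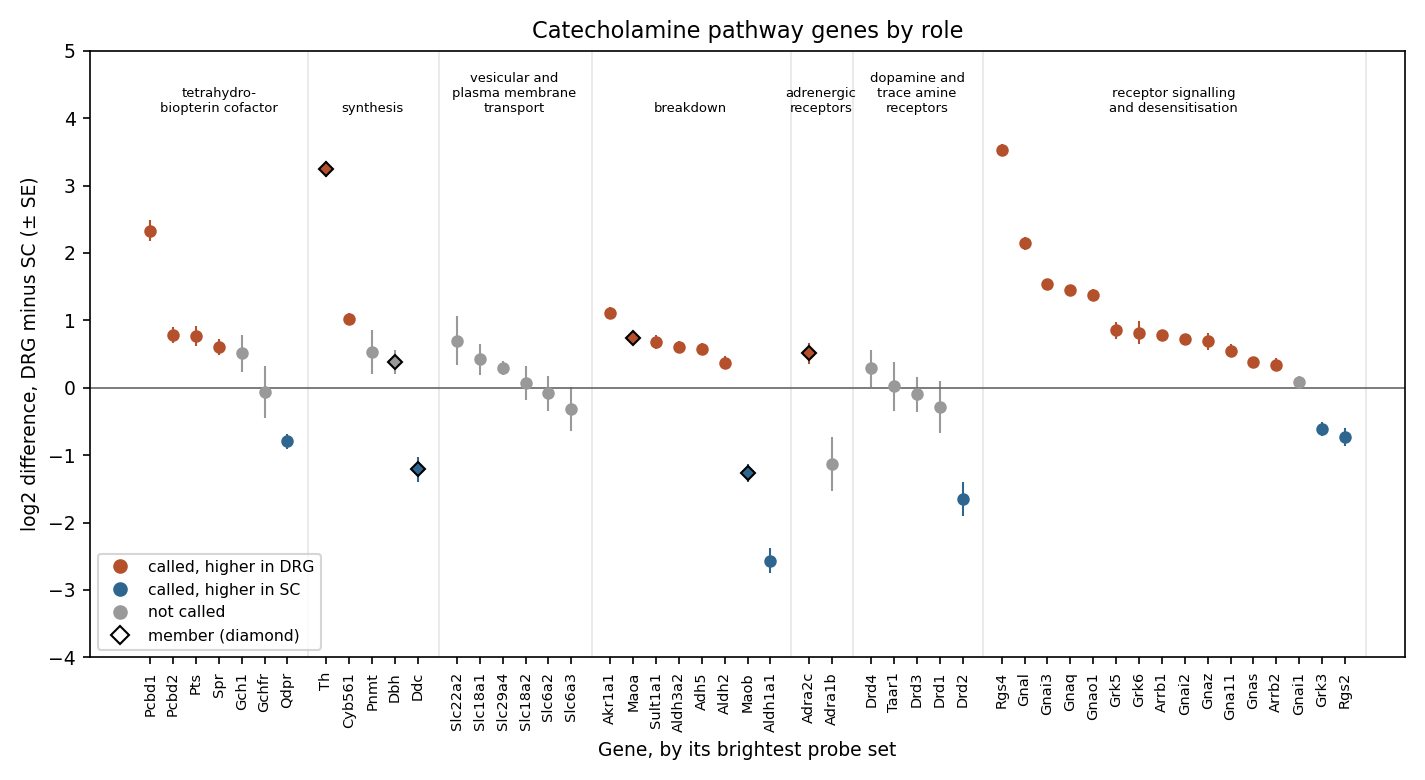
log2 difference, DRG minus SC (± SE), of 49 measured pathway genes, each by its brightest probe set, grouped by role, coloured by call and with the 6 members as diamonds. The transporter genes are all uncalled, genes of breakdown are all called, and Th at 3.24 and Rgs4 at 3.53 lie highest.

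The genes whose values over the 6 arrays were most like those of a member were sought among 16311 genes, by the Euclidean distance of the log2 values after centring each gene on its mean. The distance rests mainly on the size of the tissue difference. Nearest to Th were Ret, the receptor of the GDNF family, at a distance of 0.23, Rspo2 at 0.23 and Crip2 at 0.26. Ret averaged 4340.2 in DRG and 443 in SC. Nearest to Ddc were Chpt1, Srcin1 and Aplp1, at 0.13, 0.14 and 0.17, and nearest to Maob were Adcy8, Aoah and Slc38a1, at 0.12, 0.13 and 0.20. For the Adra2c probe set 1422335_at they were Zdhhc15, Otoa and Arfgef2, at 0.22, 0.23 and 0.24.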

How the data were processed

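Lumbar DRG and SC were measured on 3 arrays each, with RNA of 4 mice pooled per array. The deposited values are ratios: per the submitters' processing notes the signals are from MAS5, without a version, and nothing further on them is stated. As read from the deposited values, each ratio had been scaled by array, then divided by the median of its probe set. The median ratio was 1 within 1e-05 in 91.8% of probe sets. In 8.21% the divisor was a constant and values lay on a grid, which gave the array factors (84.5 to 89.5 in DRG and 110.5 to 112.6 in SC). MAS5 writes signals in steps of 0.1, so the smallest multiplier that put all values of a probe set on whole steps gave its signal, for 45094 of 45101 probe sets. In 8000 simulated probe sets 98.5% were recovered exactly and 1.39% up to a common factor. The 65 values at the floor of 0.01 are upper bounds; no member value was at the floor. The array scaling of the deposited ratios was kept.

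Differences were tested with limma 3.58.1 in R 4.3.3 (lmFit, eBayes with an intensity trend, two-sided, Benjamini-Hochberg adjustment) on log2(signal + 16) of 45030 probe sets, leaving out 64 controls. The pseudocount makes log2 differences of dim genes smaller. A simulation with 200 changed of 45030 probe sets recovered 34% of changes of 1 and 83% of changes of 2 on the log2 scale, with 0.00892% false calls. In the data 14611 were called. The adjustment is stricter where fewer probe sets change, so the simulated rates are not those of the calls reported here. Genes were named by the platform annotation, 34958 probe sets with a single gene, with 932 of several genes left out, and coordinates are those of RefSeq windows only. Signals were recovered with Python 3.11.15, numpy 2.4.6 and pandas 2.3.3. A fold is a ratio of geometric means; where a tissue is at or under the off-tissue level on its 3 arrays, that level, or its own signal if higher, stands in. The named genes were all members, pathway genes called with a difference of at least 1, all measured receptors and transporters, up to 4 genes per marker list, and 3 nearest genes per member called with such a difference; other pathway genes, Phox2a and Slc17a6 were named after their values were seen. Planned pairs with Adra1a or Adra2a could not be formed. The members and lists were chosen with earlier results of these data known. The p-values measure the spread between pools. The number of arrays limits the precision.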

Additional observations from a re-analysis of the deposited data

How the results depend on the processing

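The calls and directions of Th, Ddc (1426215_at), Maob, Maoa (1428667_at) and Adra2c (1422335_at) held under every alternative run on them: quantile normalization, signals before the array scaling, log2 of the deposited ratio, a pseudocount of 64, 1 probe set per gene (not run for the last, which is not its gene's brightest), only probe sets above the median signal, no intensity trend, the replicate block, and leaving out each array. The brightest Adra2c probe set also lost its call with log2 of the deposited ratio (0.55, limma adjusted p = 0.0502) and with no intensity trend (0.51, adjusted p = 0.0520), beside quantile normalization (0.39), signals before the scaling (0.17) and 4 of the 6 arrays left out in turn (0.42 to 0.53). It kept the call without DRG replicate 2 or SC replicate 3, so the whole range with an array left out was 0.42 to 0.63. Maoa (1442676_at) ranged from 0.24 to 0.49 with an array left out. Uncalled probe sets changed sign: on signals before the array scaling Dbh 1447592_at came to −0.076 and Dbh 1459848_x_at to −0.17. Without DRG replicate 2 or SC replicate 2 Dbh 1459848_x_at came to −0.051 and −0.02, and without DRG replicate 1 Ddc 1430591_at to 0.068. With an array left out these ranged from −0.051 to 0.15 for Dbh 1459848_x_at and from −0.22 to 0.068 for Ddc 1430591_at. The cause was not tested. The count of called member probe sets stayed at 5 or 6 in all alternatives and that of pathway genes between 26 and 35, against 33. Over all probe sets, 14611 were called, 10204 toward DRG and 4407 toward SC. These became 6723 and 6467 with quantile normalization, and 6010 and 8970 on signals before the array scaling. With 1 probe set per gene, where fewer features were tested, they were 5955 and 1862 of 7817. Toward DRG went 69.8% of calls, or 51.0% and 40.1% on these other scalings, and the median probe set differed by 0.08, 0.01 and −0.18, so small differences have no settled direction. With the replicate block 14153 probe sets were called and Th differed by 3.24 (limma adjusted p = 2.26e-06); the block changed no call of a member. Deviations of same-numbered DRG and SC arrays from their tissue means correlated at −0.00994, −0.0209 and 0.00344. Array noise can keep such values near 0 for paired samples too, so they do not decide whether the numbers pair samples. Members under the off-tissue level are limited by signal over background.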

Other observations

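Other cell types were read from lists by their brightest probe sets. Of 9 measured genes of spinal neurons, 7 were called higher in SC and 1, Slc17a6, higher in DRG, with a median difference of −4.33. All 7 measured oligodendrocyte genes were called higher in SC, with a median of −3.92. Of 7 measured genes of Schwann and satellite cells, 5 were called higher in DRG and 1 higher in SC, with a median of 1.23. Of 8 genes of fibroblasts and meninges, 7 were called higher in DRG, with a median of 1.93. Among 11 genes of endothelium and mural cells, calls were 5 toward DRG and 1 toward SC. The median was 0.24, or −0.082 on signals before the array scaling. Of 7 genes of macrophages and microglia, 5 were called higher in SC, with a median of −0.83.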
